A study of Mus musculus with 55 samples.

Results

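The genes described here encode 7 subunits of the GABA-A receptor, namely Gabra2, Gabra3, Gabra4 and Gabra5 (alpha subunits), Gabrb1 and Gabrb2 (beta subunits) and Gabrd (the delta subunit). They were taken by name from 45318 genes in the tables, where 12 more GABA-A subunit genes were looked up for comparison, and all 7 passed the filter on low counts. RNA was sequenced from the ventral dentate gyrus of 54 male C57/BL6J mice, with 1 mouse per sample. Mice were raised from weaning into young adulthood in standard housing (SH) or in an enriched environment (EE) of large group cages with tunnels, objects and running wheels. Chronic social defeat stress (CSDS), repeated defeat by an aggressive CD1 male, was then applied, and defeated mice were split by a social interaction test into resilient (RES) and susceptible (SUS) animals, while control mice were not defeated. The groups held 10 SH control, 7 SH RES, 10 SH SUS, 9 EE control, 9 EE RES and 9 EE SUS mice. The housing contrast therefore joins cage size, group size, objects and running, and RES and SUS were sorted after the stress rather than assigned.

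GABA-A receptors are chloride channels built from several subunits around one pore, and they carry most fast inhibition in the brain. Receptors with alpha 2 or alpha 3 are mainly synaptic. Receptors with alpha 4 and delta, or with alpha 5, lie largely outside synapses and carry tonic inhibition. Dentate granule cells are known for a strong tonic current through receptors that hold alpha 4 and delta, alpha 5 is typical of hippocampal pyramidal cells, and beta subunits form part of the GABA binding site.

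The total gene count ran from 16760009 to 45872357 per mouse, with a median of 21552884. The highest total belonged to an EE control mouse that was sequenced in 2 runs, and the highest total of a mouse sequenced once was 24426804. All 7 dentate granule cell markers were detected in every mouse, with Prox1 between 79.6 and 210.2 CPM (counts scaled to library size). Markers of neighbouring tissue were present as well. The 8 choroid plexus markers summed to more than 100 CPM in 6 mice, up to 985 CPM, against at most 80.3 CPM in the others, and the 10 thalamus markers summed to between 91.9 and 590 CPM.

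The 7 genes lie on 5 chromosomes of the mouse genome (GRCm38). Gabra2 spans chr5:70957597-71095849 on the minus strand. Gabra4 spans chr5:71569749-71658308 on the minus strand, and Gabrb1 spans chr5:71658113-72149037 on the plus strand. In GENCODE M21 the starts of Gabra4 and Gabrb1 overlap head to head by 196 bases, of which 46 are exonic in both genes. Gabra3 spans chrX:72432681-72656848 (minus), Gabra5 chr7:57407672-57510059 (minus), Gabrb2 chr11:42419757-42629028 (plus) and Gabrd chr4:155384980-155398112 (minus). Gabra5 shares 148 exonic bases with an opposite-strand gene, and counting by strand separates the members of each such pair.

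Promoter windows are shown for 4 members, because Gabra4 and Gabrb2 moved together over the mice, Gabra3 moved against them, and Gabrb1 starts beside Gabra4. Each window runs from 250 bases before to 50 bases after a RefSeq transcript start (GRCm38.p6) and is written 5′ to 3′ on the strand of the gene. Windows were found for 6 of the 7 members, with 3 for Gabrb2, 2 each for Gabrb1 and Gabra3 and 1 for each of the others, and 1 is shown per gene. RefSeq starts can differ from the GENCODE M21 spans given above. The Gabrb1 window shown ends at 71657970, before the GENCODE start of 71658113. Capitals mark matches on either strand to the GC box GGGCGG, the EGR motif GCGNGGGCG, the TATA box TATAAA or the cyclic AMP response element TGACGTCA.
Gabra4, chr5:71658259-71658558: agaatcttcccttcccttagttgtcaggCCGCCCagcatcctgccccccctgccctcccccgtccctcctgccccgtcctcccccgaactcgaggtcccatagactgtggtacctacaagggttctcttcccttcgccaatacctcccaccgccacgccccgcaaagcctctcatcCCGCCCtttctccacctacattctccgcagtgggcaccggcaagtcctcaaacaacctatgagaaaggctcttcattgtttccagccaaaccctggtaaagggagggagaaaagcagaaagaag
Gabrb1, chr5:71657671-71657970: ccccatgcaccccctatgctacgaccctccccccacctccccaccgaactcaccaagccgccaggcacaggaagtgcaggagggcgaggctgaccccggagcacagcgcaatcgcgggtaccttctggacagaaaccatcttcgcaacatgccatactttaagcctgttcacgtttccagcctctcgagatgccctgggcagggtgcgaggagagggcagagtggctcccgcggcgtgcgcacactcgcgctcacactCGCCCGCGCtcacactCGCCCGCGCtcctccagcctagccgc
Gabrb2, chr11:42420190-42420489: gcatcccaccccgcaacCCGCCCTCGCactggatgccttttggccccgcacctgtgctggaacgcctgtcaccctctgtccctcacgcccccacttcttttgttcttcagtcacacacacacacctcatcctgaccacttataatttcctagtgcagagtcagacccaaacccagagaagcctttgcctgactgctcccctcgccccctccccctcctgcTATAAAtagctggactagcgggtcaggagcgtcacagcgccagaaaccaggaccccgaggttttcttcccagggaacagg
Gabra3, chrX:72656870-72657169: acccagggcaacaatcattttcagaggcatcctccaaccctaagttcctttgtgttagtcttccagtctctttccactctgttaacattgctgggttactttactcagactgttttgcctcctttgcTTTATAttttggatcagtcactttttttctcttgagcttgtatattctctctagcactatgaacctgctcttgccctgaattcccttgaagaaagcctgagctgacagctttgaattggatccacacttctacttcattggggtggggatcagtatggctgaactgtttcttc
The Gabra4 window held 2 GC boxes, a motif found in 35.9% of all 32544 promoter windows. The Gabrb1 window shown held 2 EGR motifs, which 5.6% of windows contain. The Gabrb2 window shown held a TATA box, found in 13.6% of windows, and a GC box that overlaps an EGR motif, while the other 2 windows of Gabrb2 held no match to any of these motifs. The Gabra3 windows overlap and held the same TATA box match, on the strand opposite to the gene, and no CpG dinucleotide. The Gabrb1 window shown held 25 CpG dinucleotides and its other window held 9 and no motif, beside a median of 7 over all windows. No window of the 6 members matched the cyclic AMP response element, which 1.80% of windows contain.

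The first question was how much transcript of each subunit the tissue held. Levels were compared between genes as RPKM (reads per kilobase of the merged exons of a gene, scaled to library size). Gabra5 was highest, ranging from 55.8 to 107.5 RPKM with a mean of 69.9 ± 8.97 (SD, n = 54). Gabrb2 followed at 41.6 ± 3.62 RPKM, with a range of 34.8 to 52.9. Gabra2 measured 33.0 ± 2.0 RPKM and ranged from 29.3 to 39.2. Those values placed the alpha 5 subunit, of mainly extrasynaptic receptors, above every other member in all 54 mice by merged exon length, and above Gabrb2 in 46 of 54 when each gene was divided by the length of its longest transcript.

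Gabra4 measured 32.0 ± 3.19 RPKM (SD, n = 54) and ranged from 24.4 to 41.0. Gabrb1 measured 20.5 ± 1.25 RPKM, between 18.0 and 24.1. Gabrd, the delta subunit that pairs with alpha 4 in granule cells, measured 14.5 ± 2.26 RPKM and ranged from 8.27 to 19.9. Gabra3 was lowest, at 5.99 ± 1.61 RPKM with a range of 3.17 to 11.2. The lowest count behind any of these values was 232 reads, for Gabra3.

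By merged exon length, Gabra5 exceeded Gabrb2, Gabrb2 exceeded Gabra2, and Gabra4 exceeded Gabrb1 in 54 of 54 mice. Gabrb1 exceeded Gabrd in 53 of 54 mice, and Gabrd exceeded Gabra3 in 53 of 54. Gabra2 and Gabra4 did not differ beyond their spread, since Gabra2 was the higher in 32 mice and Gabra4 in 22. Divided by the longest transcript, this pair changed places, with Gabra4 the higher in 44 mice and means of 47.3 RPKM for Gabra4 and 43.1 RPKM for Gabra2. On that scale Gabra5 exceeded Gabrb2 in 46 mice and was below it in 8, Gabrb1 exceeded Gabrd in 52, and the other neighbours kept their counts of 54, 54 and 53 mice.

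**Figure D1:**
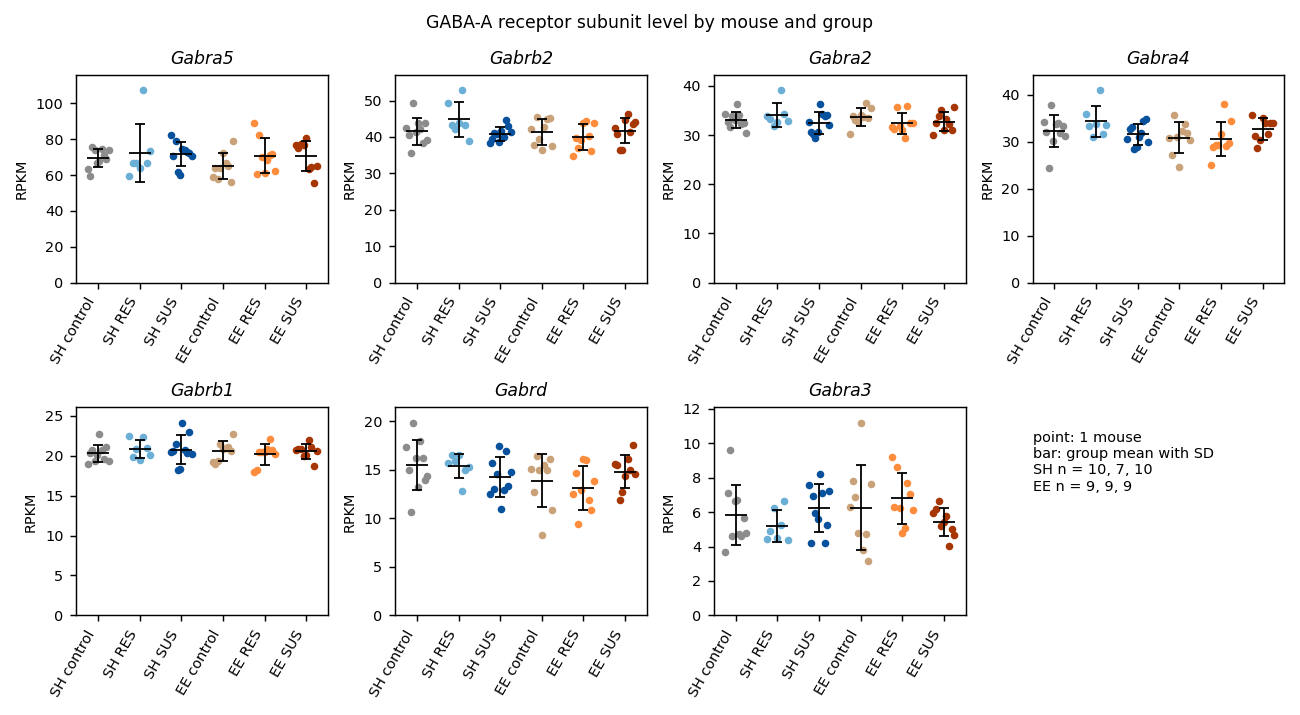
RPKM of each subunit gene in each mouse (points), with the group mean and SD (black), for the 6 groups on a linear axis that starts at 0. The ranges of the groups overlapped for every gene, and 1 SH RES mouse stood at 107.5 RPKM of Gabra5.

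Among the 4 alpha members, Gabra5 made up 49.5% ± 2.88 of the summed RPKM (SD, n = 54), Gabra2 23.5% ± 1.54, Gabra4 22.8% ± 2.41 and Gabra3 4.26% ± 1.10. Summed RPKM of the mainly extrasynaptic genes (Gabra4, Gabra5 and Gabrd) was 2.99 ± 0.283 times that of the mainly synaptic alpha genes (Gabra2 and Gabra3). That ratio was lowest in EE control mice, at 2.76 ± 0.224 (n = 9), and highest in EE SUS mice, at 3.10 ± 0.279 (n = 9), with SH RES mice at the same rounded mean. The ranges of EE control and EE SUS mice overlapped, at 2.32 to 3.05 and 2.82 to 3.57. Gabrb2 exceeded Gabrb1 by 2.03 ± 0.188 times by merged exon length and by 3.21 ± 0.298 times by the longest transcript. The latter length gave shares of 44.4% for Gabra5, 24.7% for Gabra2, 27.2% for Gabra4 and 3.68% for Gabra3. Shares of RPKM describe transcripts and not assembled receptors.

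Members differed in how much they varied. Gabrb1 and Gabra2 were the steadiest, with group means that differed by at most 1.03-fold and 1.05-fold. Gabra5, Gabrb2 and Gabra4 spanned 1.11-fold, 1.12-fold and 1.12-fold between the lowest and the highest group mean. Gabrd spanned 1.18-fold and Gabra3 1.31-fold. The coefficient of variation over mice followed a like order, from 6.06% for Gabra2 and 6.11% for Gabrb1 to 15.6% for Gabrd and 26.8% for Gabra3.

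The second question was whether defeat changed any of the subunits. None of the 7 members passed the test in SH SUS against SH control mice, where 0.0328% of all 18283 genes tested were called by edgeR's quasi-likelihood test at an adjusted p below 0.05. None of the 7 passed in SH RES against SH control, EE SUS against EE control or EE RES against EE control, and in each of these the background was 0%. With both housings averaged, none of the 7 differed between 35 defeated and 19 control mice, against a background of 0.0438%. Of the pooled log2 fold changes 4 were above 0 and 3 below, with a median of 0.00866 beside -0.00276 over all genes. At an unadjusted p below 0.05 the count of members was also 0 in each of these comparisons, where 2.78%, 3.51%, 7.9%, 7.91% and 4.81% of all genes passed that looser threshold, in the order given.

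In SH mice, Gabra5 ranged from 59.4 to 75.5 RPKM in controls (median 70.0) and from 60.1 to 82.3 RPKM in SUS mice (median 72.7). In EE mice it ranged from 56.4 to 79.1 RPKM in controls (median 64.0), from 60.6 to 89.1 in RES (median 70.2) and from 55.8 to 81.0 in SUS mice (median 74.9). The groups overlapped throughout. The pooled log2 fold change of defeated against control mice was 0.09 for Gabra5 (SE 0.049, adjusted p = 0.987), and its 95% interval ran from -0.843% to 13.7%. For Gabrb2 the same interval ran from -3.77% to 5.64%, and for Gabra2 from -4.86% to 1.94%. Gabra3 had the widest interval, from -15.4% to 11.9%. Each interval gives the changes that the data leave possible without adjustment for the number of genes. It does not give the smallest change that the adjusted test could call.

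The third question was whether SUS and RES mice differed. With housings averaged none of the 7 members was called, against a background of 0%, and none had an unadjusted p below 0.05 (background 3.67%). Fold changes ran from -0.03 to 0.03 on the log2 scale. In SH mice none was called either (background 0%), and Gabrb2 alone had an unadjusted p below 0.05, as did 4.88% of all genes. Gabrb2 ranged from 38.8 to 52.9 RPKM in SH RES mice (median 43.3) and from 38.3 to 44.7 in SH SUS mice (median 40.9). The upper part of the SH RES range lay above the SH SUS mice, and the lower part overlapped them. The log2 fold change was -0.13 (SE 0.058, unadjusted edgeR p = 0.0254, adjusted p = 0.934). Without SH RES mouse 5 it was -0.09, with an unadjusted edgeR p of 0.125. Without SH RES mouse 1 no member had an unadjusted p below 0.05 either. The count of such members was 0 to 2 with any 1 mouse left out. It was 0 with the granule cell marker score as a covariate and with limma-voom quality weights. Leaving out SH RES mouse 5 and the mice with high choroid plexus markers also gave 0. With CA1 and CA3 pyramidal cell marker scores as covariates it was 3, namely Gabra3, Gabrb2 and Gabra4. Their unadjusted edgeR p values there were 0.00170, 0.00820 and 0.00902, and the lowest adjusted p was 0.706.

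In EE mice no member was called between SUS and RES (background 0%), and none had an unadjusted p below 0.05 (background 3.52%). Gabra3 ranged from 4.05 to 6.65 RPKM in EE SUS mice (median 5.42) and from 4.81 to 9.23 in EE RES mice (median 6.33). Its log2 fold change of -0.32 (SE 0.17, adjusted p = 0.9997) had a sign opposite to the 0.26 (SE 0.18, adjusted p = 0.934) of SH mice. The difference between these 2 contrasts was not tested.

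The fourth question was whether housing mattered. None of the 7 members was called between 27 EE and 27 SH mice with phenotypes averaged, where 2.42% of all genes were called. Fold changes on the log2 scale were -0.11 for Gabrd (SE 0.060), -0.06 for Gabra4 (SE 0.037), -0.05 for Gabra5 (SE 0.047), -0.05 for Gabrb2 (SE 0.032), -0.01 for Gabrb1 (SE 0.025), -0.01 for Gabra2 (SE 0.024) and 0.10 for Gabra3 (SE 0.097). The median of the 7 was -0.05, beside 0.00434 over all genes. The adjusted p was lowest for Gabrd, at 0.342. The 95% interval for Gabrd ran from -14.8% to 0.755%. None was called in EE control against SH control or in EE SUS against SH SUS mice, with a background of 0.00547% in each, and none had an unadjusted p below 0.05 (backgrounds 5.02% and 7.36%). The housing by defeat interaction called none of the members (background 0%; 6.47% unadjusted), and the test of any difference among the 6 groups called none (background 0.35%; 11.1% unadjusted).

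**Figure D2:**
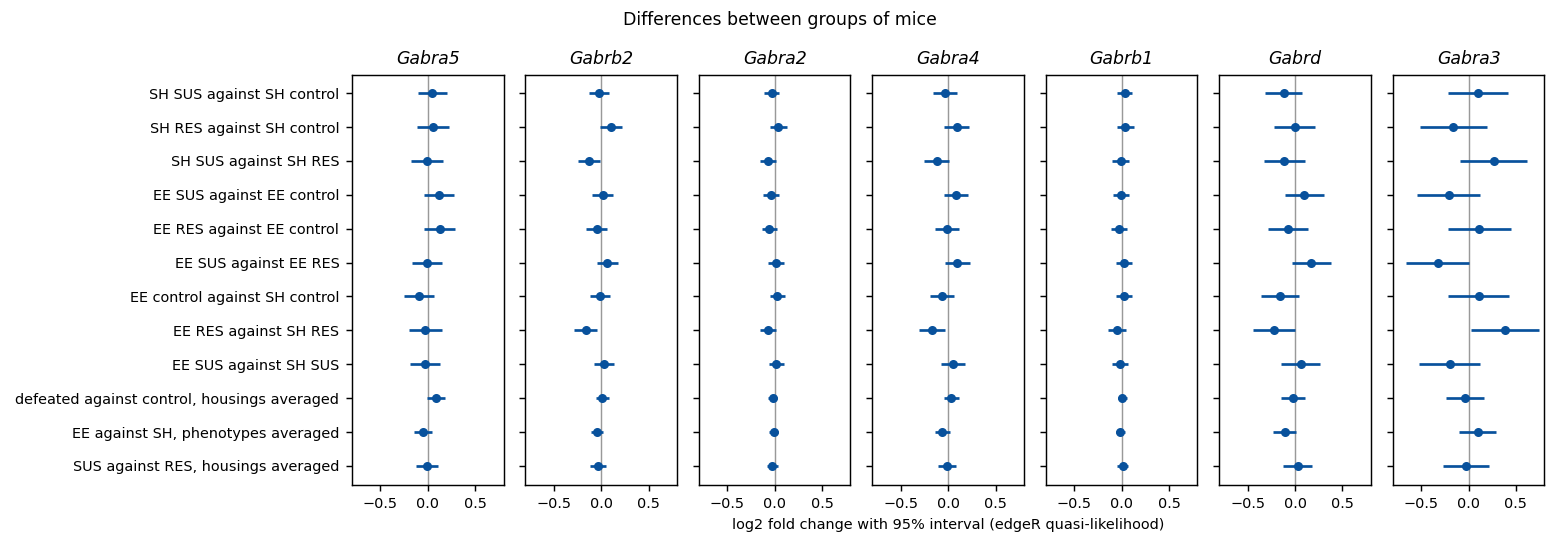
Log2 fold change (points) and 95% interval (lines) of each subunit gene in 12 comparisons, from the edgeR quasi-likelihood fit over 54 mice, where values above 0 are higher in the first-named group. Intervals that leave out 0 were seen for Gabrb2 in SH SUS against SH RES and for Gabrb2, Gabra4, Gabrd and Gabra3 in EE RES against SH RES, and no adjusted p passed 0.05.

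Resilient mice of the 2 housings gave the widest differences between groups. None of the 7 members was called in EE RES against SH RES mice, against a background of 0.273%, while 4 of 7 had an unadjusted p below 0.05, as did 16% of all genes. The 4 were Gabrb2, Gabra4, Gabrd and Gabra3. That count was 3 without SH RES mouse 5, 2 to 4 with any 1 mouse left out (2 without EE RES mouse 1 or SH RES mouse 1, 2, 4 or 7), and 1 (Gabrd) without SH RES mouse 5 and the 6 mice with high choroid plexus markers. Gabrb2 ranged from 34.8 to 44.3 RPKM in EE RES mice (median 39.7) and from 38.8 to 52.9 in SH RES mice (median 43.3). Its log2 fold change was -0.17 (SE 0.059, unadjusted edgeR p = 0.00694, adjusted p = 0.148), a change of -10.8% with a 95% interval from -17.9% to -3.22%. Gabra4 ranged from 24.9 to 38.0 RPKM in EE RES mice (median 29.4) and from 30.9 to 41.0 in SH RES mice (median 33.6). Its log2 fold change was -0.17 (SE 0.069, adjusted p = 0.205). Both genes had lower medians in EE RES mice, and the ranges overlapped.

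Gabrd, the partner of alpha 4 in tonic receptors of granule cells, ranged from 9.45 to 16.2 RPKM in EE RES mice (median 13.0) and from 12.9 to 16.6 in SH RES mice (median 15.7). Its log2 fold change was -0.23 (SE 0.11, adjusted p = 0.296). Gabra3 went the other way, from 4.81 to 9.23 RPKM in EE RES mice (median 6.33) against 4.41 to 6.64 in SH RES mice (median 4.89), with a log2 fold change of 0.39 (SE 0.18, adjusted p = 0.269). The EE RES mice were the more spread for Gabrd and Gabra3, and their ranges reached past the SH RES mice on the low side for Gabrd and on the high side for Gabra3. Gabra2, Gabra5 and Gabrb1 had log2 fold changes of -0.07, -0.03 and -0.05, with adjusted p values from 0.431 to 0.914. Over the 7 members the median log2 fold change was -0.07, beside 0.00494 over all genes.

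Markers of several cell types moved with this comparison. All 7 granule cell markers were detected in every mouse, and their sum ran from 1159 to 1303 CPM in SH RES mice and from 728 to 1224 CPM in EE RES mice. The 6 oligodendrocyte markers summed to between 915 and 1183 CPM in SH RES and between 1091 and 1798 CPM in EE RES mice. The 3 hilar mossy cell markers summed to between 149 and 207 CPM in SH RES and between 88.1 and 176 CPM in EE RES mice, and the 4 astrocyte markers to between 1204 and 1401 and between 1030 and 1341 CPM. The last 3 lists thus had overlapping ranges, higher in EE RES mice for oligodendrocytes and lower for mossy cells and astrocytes by the mean score, and their part in the result was not tested. With the granule cell score as a covariate, the log2 fold change was -0.10 for Gabrb2 (adjusted p = 0.691), -0.10 for Gabra4 (adjusted p = 0.742), -0.04 for Gabrd (adjusted p = 0.937) and 0.08 for Gabra3 (adjusted p = 0.925). With scores of 5 CA1 and 6 CA3 pyramidal cell markers as covariates, it was -0.11 for Gabrb2, -0.12 for Gabra4, -0.09 for Gabrd and 0.14 for Gabra3, with adjusted p values of 0.383, 0.406, 0.685 and 0.578. With thalamus and choroid plexus scores as covariates, it was -0.16 for Gabrb2, -0.17 for Gabra4, -0.20 for Gabrd and 0.31 for Gabra3. The adjusted edgeR p values there were 0.132, 0.142, 0.284 and 0.353, in that order. In bulk tissue, fewer cells of a type and less RNA per cell cannot be told apart.

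The members were then compared with each other over the 54 mice, as Pearson's r of log2 CPM with a two-sided permutation test. Of 21 pairs, 12 had an adjusted p below 0.05, and 6 of these were positive and 6 negative. The share among pairs of other genes was not computed. By Spearman's rho, Gabra2 did not pass with Gabra5 (adjusted permutation p = 0.259) or with Gabrd (0.118). Gabra5 with Gabrb2 passed by rho (-0.382, adjusted permutation p = 0.0108) and not by r (-0.191, adjusted permutation p = 0.204). Gabra4 and Gabrb2 had the highest r, 0.832 (rho 0.809, adjusted p = 4.2e-05, from the smallest p that the resamples can give). It was 0.820 for deviations from the group means, and leaving out the 2 mice with the most extreme level gave 0.792. Gabrd rose with both, at r = 0.574 with Gabra4 (rho 0.534) and 0.566 with Gabrb2 (rho 0.542), each with an adjusted p of 4.2e-05. Mice with more alpha 4 transcript thus also held more beta 2 and delta transcript.

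Gabra3 ran against these 3 genes. Its r was -0.734 with Gabrd (rho -0.685), -0.612 with Gabra4 (rho -0.580) and -0.516 with Gabrb2 (rho -0.487), with adjusted permutation p values of 4.2e-05, 4.2e-05 and 0.000175. Leaving out the 2 most extreme mice gave -0.698, -0.595 and -0.470. Gabra5 also fell as Gabrd rose, at r = -0.469 (rho -0.521, adjusted permutation p = 0.0015). Gabra2 and Gabrb1 had r = 0.517 (rho 0.419, adjusted permutation p = 0.00021).

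Gabra4 and Gabrb1, whose starts overlap on chromosome 5, had an r of 0.253 (rho 0.173, adjusted permutation p = 0.0983), below the 0.832 of Gabra4 with Gabrb2 on chromosome 11. The difference between these correlations was not tested. In the 47 mice that remained without SH RES mouse 5 and the 6 mice with high choroid plexus markers, r was 0.788 for Gabra4 and Gabrb2 and -0.687 for Gabra3 and Gabrd.

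**Figure D3:**
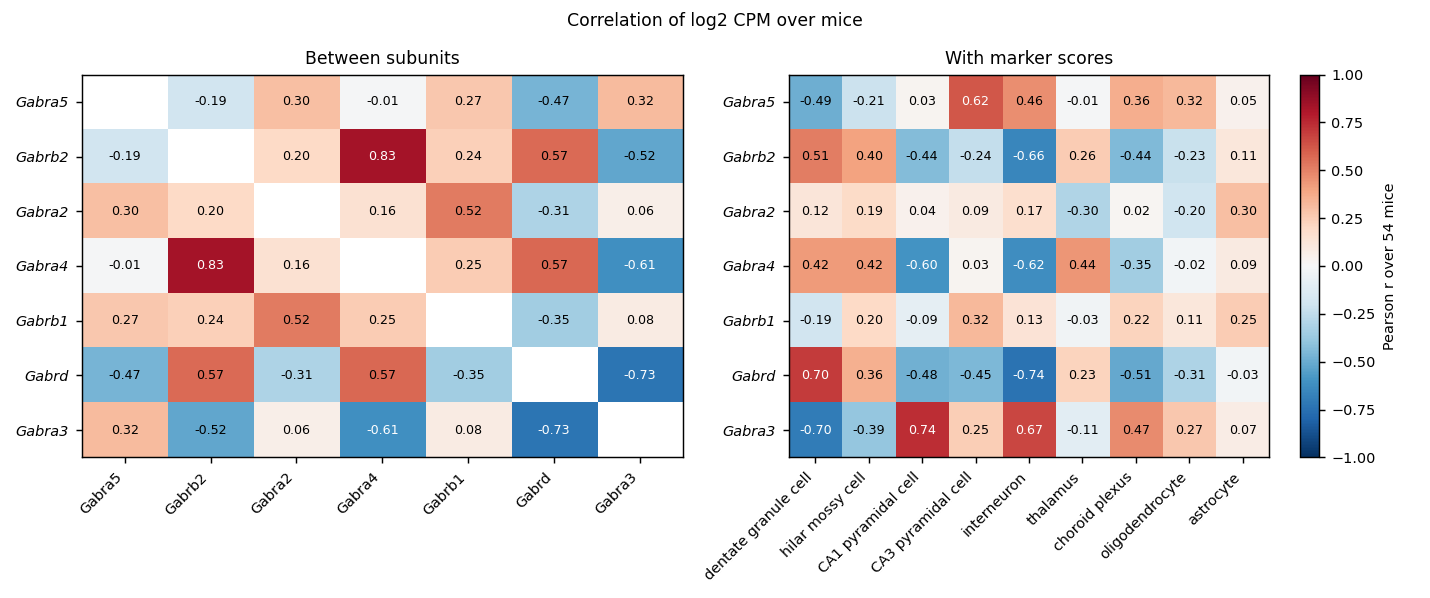
Pearson's r over 54 mice between the subunit genes (left) and between each gene and 9 marker scores (right), from log2 CPM, in red for positive and blue for negative values. Gabra4, Gabrb2 and Gabrd formed a positive set (0.566 to 0.832) and Gabra3 was negative with each of them (-0.734 to -0.516).

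Marker scores, the mean of standardized log2 CPM over a list of cell type markers, were set against the members. Of 63 pairs of member and list, 29 had an adjusted p of Pearson's r below 0.05. The share among all genes tested was not computed, so this count cannot be called particular to the members. With the score of 7 dentate granule cell markers, r was 0.701 for Gabrd (rho 0.595), 0.510 for Gabrb2 (rho 0.485), 0.423 for Gabra4 (rho 0.410), -0.485 for Gabra5 (rho -0.570) and -0.701 for Gabra3 (rho -0.652), with adjusted permutation p values of 7e-05, 0.000756, 0.00468, 0.00131 and 7e-05. Gabra2 (r = 0.123) and Gabrb1 (r = -0.188) did not pass the test. The delta, beta 2 and alpha 4 genes were thus higher in mice with higher granule cell markers, and alpha 3 and alpha 5 were lower. Leaving out the 2 mice with the most extreme score, r was 0.607 for Gabrd, 0.320 for Gabra4 and -0.660 for Gabra3.

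Pyramidal cell markers gave another pattern. With the score of 5 CA1 markers, r was 0.741 for Gabra3 (rho 0.737, adjusted permutation p = 7e-05) and -0.601 for Gabra4 (rho -0.542, adjusted permutation p = 7e-05). With the score of 6 CA3 markers, r was 0.621 for Gabra5 (rho 0.709, adjusted permutation p = 7e-05), and the r of Gabra5 with the CA1 score was 0.0251. Leaving out the 2 mice with the most extreme score gave 0.720, -0.518 and 0.621. CA1 marker sums ran from 62.0 to 255 CPM over the mice and CA3 marker sums from 295 to 437 CPM.

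Other lists moved with the members too. The score of 8 interneuron markers had r = -0.740 with Gabrd (rho -0.684), -0.656 with Gabrb2 (rho -0.651), -0.620 with Gabra4 (rho -0.608), 0.667 with Gabra3 (rho 0.622) and 0.461 with Gabra5 (rho 0.496), with an adjusted permutation p of 7e-05 for the first 4 and 0.00172 for Gabra5. The score of 3 hilar mossy cell markers had r = 0.423 with Gabra4, the choroid plexus score had -0.511 with Gabrd (-0.237 in the 47 mice without SH RES mouse 5 and the 6 mice with high choroid plexus markers), and the thalamus score had 0.443 with Gabra4. By r, Gabra2 passed with 0 of 9 lists, Gabrb1 with 1, Gabra3, Gabra5 and Gabrb2 with 5 each, Gabra4 with 6 and Gabrd with 7. By rho, Gabrd did not pass with the mossy cell, choroid plexus and oligodendrocyte scores (adjusted permutation p = 0.200, 0.0522 and 0.153). Gabra4 did not pass by rho with the choroid plexus score (adjusted permutation p = 0.145), nor Gabrb1 with the CA3 score (0.0955). The order of members by number of lists therefore depends on the measure. Gad1, Gad2 and Slc32a1 belong both to the interneuron markers and to the GABA synthesis list. The part of tissue makeup in these correlations was not tested.

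**Figure D4:**
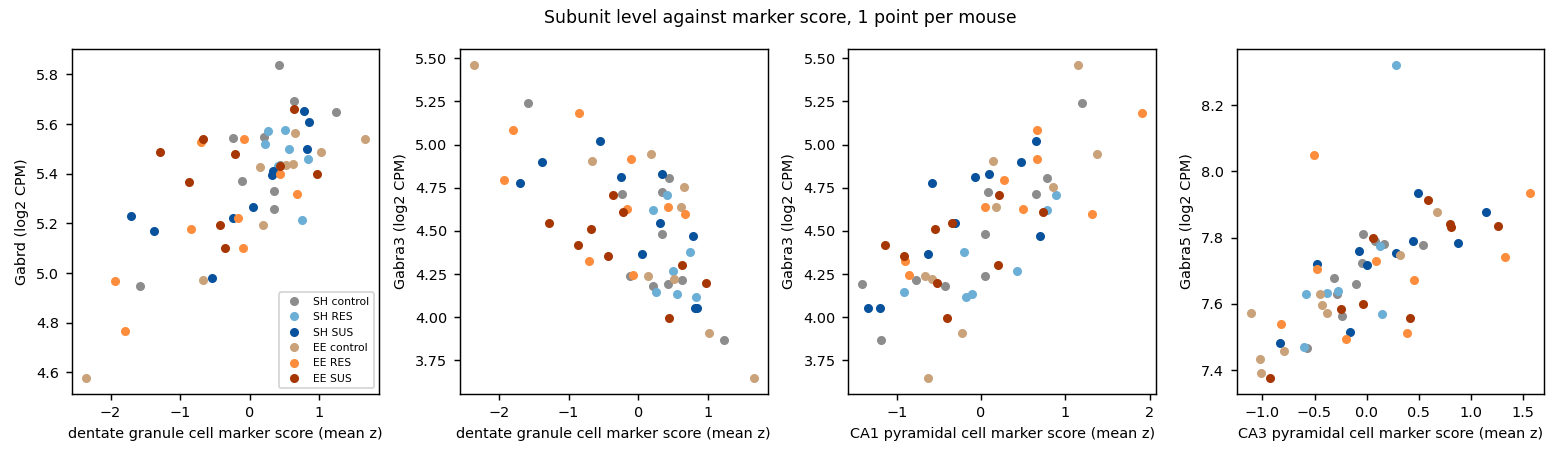
Log2 CPM of Gabrd, Gabra3 and Gabra5 (vertical axes) against a marker score, the mean z over the markers (horizontal axes), with 1 point per mouse coloured by group. Gabrd rose with the granule cell score (r = 0.701), and Gabra3 fell with it (r = -0.701) and rose with the CA1 score (r = 0.741). Gabra5 rose with the CA3 score (r = 0.621). The SH RES mice lay together at granule cell scores from 0.213 to 0.838, while the other groups spread from low to high scores.

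Among all genes tested, those whose log2 CPM followed each member most closely over the 54 mice were listed as a description. For Gabra3 they included Ldb2 (r = 0.885) and Gpr161 (0.880). For Gabra4 they were Kcnip4, a potassium channel interacting protein (0.803), 2900064K03Rik (0.770) and Pcm1 (0.764). For Gabrb2 they were Hecw1 (0.801), a gene known here only by its identifier (0.787) and Grik2, a kainate receptor subunit (0.783).
For Gabra5 the closest were Mllt11 (0.799), Snx10 (0.777) and Napb (0.772). For Gabrb1 they were Nlgn1, a synaptic adhesion protein (0.788), Ube3a, a ubiquitin ligase (0.767), and Far1 (0.743). For Gabrd they were Pde1b, a calcium-dependent phosphodiesterase (0.798), Adarb2 (0.782) and Btbd3 (0.780), and for Gabra2 they were Lrrc4c (0.694), Nap1l1 (0.665) and Chl1 (0.650). Mice share depth and tissue makeup across these genes.

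The rest of the GABA pathway was read from 6 lists. The filter on low counts kept 6 of 12 further GABA-A subunits, 5 of 5 GABA-B receptor genes, 9 of 9 genes of GABA synthesis, packaging, uptake and breakdown, 16 of 16 receptor scaffold and trafficking genes, 3 of 3 genes of chloride transport and carbonic anhydrase, and 5 of 6 neurosteroid synthesis genes. None of these 44 genes was called in any of the 13 comparisons or in the test over the 6 groups, against backgrounds of 0% to 2.42%. In EE RES against SH RES mice 10 of 44 had an unadjusted edgeR p below 0.05 (lowest adjusted p 0.0624), where the background was 16%. With phenotypes averaged 10 of 44 did between EE and SH mice (lowest adjusted p 0.0523), where the background was 17.6%.

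Genes among the 2 most abundant of their own list were followed in EE RES against SH RES mice. Those of the neurosteroid list were low in level, with means of 6.75 CPM for Srd5a1 and 2.45 CPM for Tspo. The GABA-B receptor subunits Gabbr1 and Gabbr2 had log2 fold changes of 0.03 (SE 0.029) and 0.18 (SE 0.070). Gad1, which makes GABA, stood at -0.03 (SE 0.036), and Gabarapl1, a trafficking protein, at 0.08 (SE 0.037). The chloride transporters Slc12a5 and Slc12a2 stood at 0.02 (SE 0.070) and 0.12 (SE 0.058), and Srd5a1 and Tspo of the neurosteroid pathway at 0.07 (SE 0.077) and -0.05 (SE 0.15). The lowest adjusted p among these 8 genes was 0.193, for Gabbr2.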

How the data were processed

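Ventral dentate gyrus RNA of 54 mice was sequenced in 55 libraries, and libraries held 32223034 to 49990637 read pairs. The authors aligned reads to mm10 with STAR and deposited counts per gene, per the labels' processing notes, which also name Picard; versions are not given in the sources used here. Counts of the reverse strand were used, since the forward strand held 3.51% to 4.13% of stranded counts. Both runs of EE control mouse 9 (r = 0.999 between runs) were summed. Gene names, spans and exon lengths came from GENCODE M21 (GRCm38), which held 44585 of the 45318 genes, and promoters from RefSeq (GRCm38.p6). Rows of unmapped, multimapping, ambiguous and unassigned reads (13.9% to 19.9%, 8.70% to 12.1%, 0.836% to 1.12% and 19.9% to 28.8% of pairs) were left out of library sizes.

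Groups came from the sample titles. Counts of all 6 groups were fitted in 1 model with edgeR 4.0.16 in R 4.3.3 (TMM scaling, factors 0.972 to 1.03, filterByExpr, quasi-likelihood test), and p-values were Benjamini-Hochberg adjusted over 18283 genes with a threshold of 0.05. The 13 contrasts were 9 pairs of groups, 3 averages over groups and the interaction of defeat and housing. RPKM used TMM-scaled library sizes and merged exon length. Correlations used log2 CPM with a prior count of 2 and 100000 resamples in a two-sided permutation test, adjusted over 21 or 63 pairs. The smallest p the resamples can give is 1e-05. Python 3.11.15, NumPy 2.4.6, pandas 2.3.3, SciPy 1.17.1 and matplotlib 3.10.9 were used. Simulated data for SH SUS against SH control (18172 genes, a log2 change of 0.5 in 200 genes) gave 78.5% recovered and 7 false calls.

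Alternatives were DESeq2 1.42.0 and limma 3.58.1 (voom, with and without quality weights, and at an unadjusted p below 0.05 with a fold above 1.3), other size factors and filters, unstranded counts, each housing alone, a replicate block, marker scores as covariates, and each mouse left out. The granule cell covariate and the fit without 7 mice were added after seeing the data. Members and gene lists were chosen with earlier results of these data known. Genes were named by a rule: all members, the 2 most abundant genes of each pathway list (none was called), and the 3 genes closest to each member by r. Some genes that the rule names are not reported here. Mice were housed several to a cage, in larger groups in the enriched cages. The labels do not say how mice relate by cage, litter or batch. The tests took each mouse as independent, so p-values judge differences against the spread between these mice and not between cages or litters.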

Additional observations from a re-analysis of the deposited data

Results flagged for a closer look

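Within each group, the highest and the lowest mouse of each member were compared with the rest by Dixon's ratio, over 42 sets of member and group, where chance alone would mark about 1 set in 20. The 3 sets that stood apart all belonged to SH RES mouse 5. Gabra5 measured 107.5 RPKM in that mouse, against 59.6 to 73.6 RPKM in the other SH RES mice. Gabra2 measured 39.2 RPKM there, against 31.8 to 34.3 in the others. Gabrd was lowest there at 12.9 RPKM, against 14.99 to 16.6 in the others. Choroid plexus markers summed to at most 25.2 CPM in every SH RES mouse, and granule cell markers to at least 1159 CPM. Without that mouse the log2 fold change of EE RES against SH RES was 0.09 for Gabra5, -0.04 for Gabra2 and -0.27 for Gabrd, with adjusted edgeR p values of 0.579, 0.733 and 0.251.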

How the results depend on the processing

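None of the 7 members was called in any of the 13 comparisons or over the 6 groups under the alternatives tried or with any 1 of 54 mice left out (0 to 0 members in each). The smallest adjusted p was 0.103 under DESeq2 and 0.0798 with 1 mouse left out, both for Gabrb2 in EE RES against SH RES, the second without EE RES mouse 9. There, 50 genes of all were called, 0 without SH RES mouse 1 and 292 without EE RES mouse 9. Of 1225 recomputed fold changes 61 changed sign. In defeated against control mice (log2), Gabra3 became 0.00431 with limma-voom, 0.060 with quality weights, 0.015 with thalamus and choroid plexus covariates and 0.00231 without the 7 mice. There, Gabra4 became -0.012 and Gabrb2 -0.017 with thalamus and choroid plexus covariates, Gabrb2 -0.00844 with quality weights and -0.00840 without the 7 mice, Gabrb1 -0.015 and Gabrd 0.076 with CA1 and CA3 covariates, and Gabrd 0.033 with the granule cell covariate. For EE against SH, Gabra3 became -0.023 with the granule cell covariate. For EE RES against SH RES, Gabra5 became 0.011 with quality weights and 0.065 without the 7 mice. With 1 mouse left out, these ran from -0.0793 to 0.0944 for Gabra5 in EE RES against SH RES, from -0.0174 to 0.00181 for Gabra2 in EE against SH and from -0.0801 to 0.0353 for Gabra3 in defeated against control. The cause of these changes was not tested. Dividing by the longest transcript moved Gabra2 to 43.1, Gabra4 to 47.3 and Gabrb2 to 66.3 RPKM. Without TMM, Gabra2 with Gabra5 (r = 0.203) and with Gabrd (r = -0.259) no longer passed.

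Replicate numbers are shared between groups in the labels. The 126 same-numbered pairs had a mean correlation of 0.0304 (-0.258 to 0.440), beside -0.00348 over 1086 other pairs. Of 54 mice, 9 correlated best with a mouse of their own number. Whether the numbers pair the mice was not tested, and the main fit treated the mice as unpaired. With the replicate block, 0 members were called in each comparison, and Gabrb2 in EE RES against SH RES gave -0.18 (adjusted edgeR p = 0.109). Counts were lowest for Gabra3, at 232 to 1350 reads per mouse (median 497). The 1350 reads belong to EE control mouse 9, whose 2 runs were summed.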
